A study of Drosophila melanogaster with 3 samples.

Results

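A set of 10 genes of fibroblast growth factor (FGF) and epidermal growth factor (EGF) receptor signalling in Drosophila melanogaster is described here, out of 13945 protein-coding genes on 6 chromosome arms. The genes were listed by name, with earlier results of these data known: htl, btl, bnl, ths, pyr, Egfr, spi, rho, pnt and aop. The measurement was chromatin immunoprecipitation sequencing (ChIP-seq) of CG17359, a zinc finger protein that the flies expressed with green fluorescent protein (GFP) at its C-terminus, and the sample descriptions name an anti-GFP antibody, whereas the antibody field of the labels names CG17359. The 3 biological replicates were whole embryos of 1 transgenic line collected at 0 to 14 h, and no untagged strain or other condition is among the samples analysed here. The deposited peak lists comprised 1 list of 30000 peaks per replicate, 1 of 30000 peaks from the replicates pooled, and a thresholded list of 7287 peaks. A summit, the point of highest signal in a peak, was assigned to a gene when it lay in the gene or within 5 kb of either end. In whole embryos, strong binding in a few cells and weak binding in many cannot be told apart.

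Both pathways start at receptor tyrosine kinases, which activate Ras and a MAP kinase cascade when a ligand binds. Heartless (htl) is the FGF receptor of the mesoderm and is activated by thisbe (ths) and pyramus (pyr), while breathless (btl) is the FGF receptor of the trachea and is activated by branchless (bnl). The EGF receptor Egfr is activated by ligands such as spitz (spi), which the membrane protease rhomboid (rho) cleaves and so releases. The cascade ends at transcription factors of the ETS family, the activator pointed (pnt) and the repressor anterior open (aop, also called Yan), which compete for the same DNA sites.

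CG17359 peaks were found at 9 of the 10 genes, and they lay mainly in introns. A thresholded summit was present in the windows of all members except btl, against 56.3% of all protein-coding genes. Among genes whose windows were at least as long as that of rho, the shortest here at 15134 bp, the share was 70.6%. The pooled list also had a summit in 9 of 10 windows, against 75.0% of genes. The windows held 48 thresholded summits: 12 at pnt, 10 at aop, 6 at ths, 5 each at bnl and spi, 4 at Egfr, 3 at pyr, 2 at rho, 1 at htl and 0 at btl. Some of these counts were lower when a replicate was left out. With replicate 1, 2 or 3 left out, taking overlapping peaks among the 7287 strongest of the other two, bnl had 3, 1 and 2 summits, spi 2, 2 and 3, pyr 1 each time and Egfr 2, 3 and 3. By the same rule pnt had 10 to 11, aop 8 to 10, ths 5 to 6, rho 2 and htl 1. Introns contained 38 of the 48 (79.2%), the upstream flanks contained 6, the 5' UTRs contained 3 and a downstream flank contained 1, and none lay in a coding exon or a 3' UTR. A start site of the same gene lay within 500 bp of 12 of the 48 summits (25.0%). Any annotated start site lay that near to 13 of them (27.1%), against 41.8% of the whole thresholded list. At any distance, the nearest annotated start site was the member's own for 35 of the 48 (72.9%), and another gene's for the rest.

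**Figure D1:**
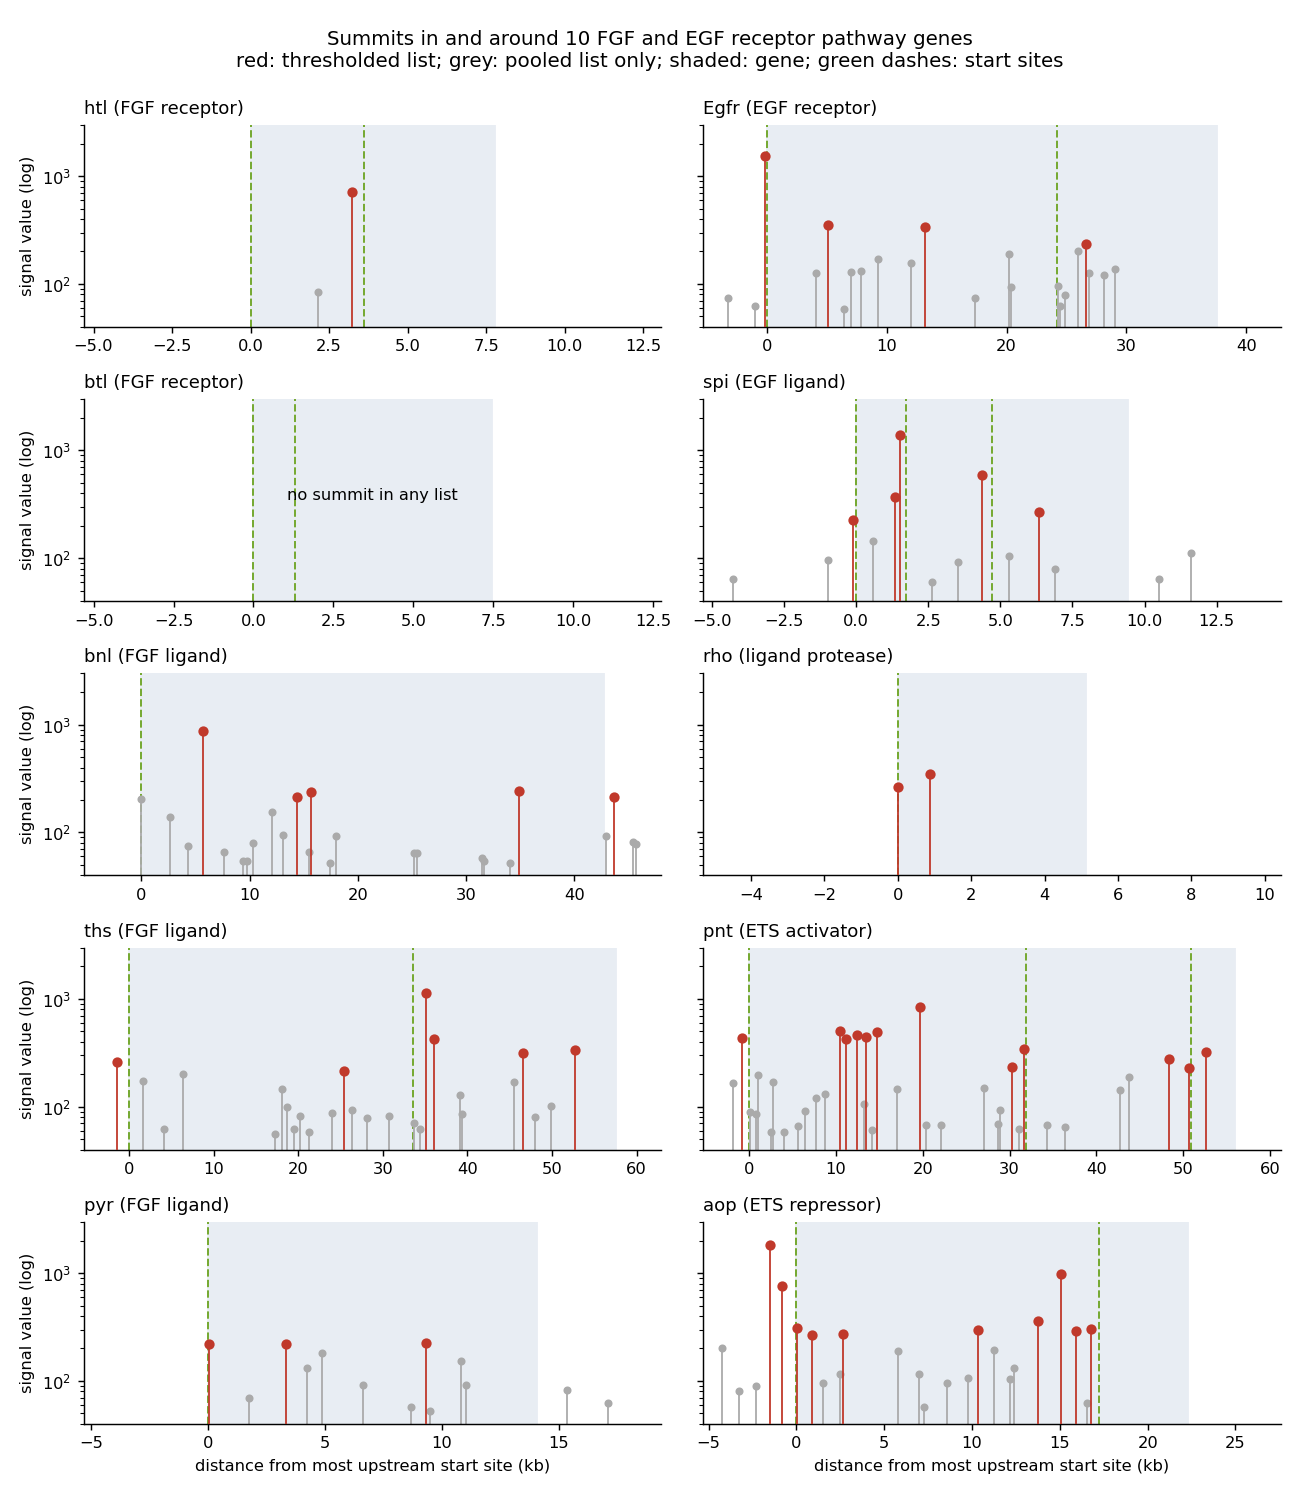
Each panel shows 1 gene, with distance from its most upstream start site in kb on the x axis and the authors' signal value on a log y axis; red points are thresholded summits, grey points are summits of the pooled list only, shading is the gene and dashed lines are start sites. pnt has 12 red points and aop 10, most of them between start sites, htl has 1 and btl has none.

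The DNA under the strongest thresholded summit is given for 6 of the 9 members that have one, to show what the sites look like. Each line is the plus strand of the reference (dm6, the Release 6 assembly, RefSeq) from 50 bp before to 50 bp after the summit, 5' to 3', and capitals mark unbroken stretches of at least 8 bases that are A or T.
htl (chr3R:18049713-18049813): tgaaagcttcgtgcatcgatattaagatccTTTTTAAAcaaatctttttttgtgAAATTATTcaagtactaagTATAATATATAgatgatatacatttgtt
bnl (chr3R:19831096-19831196): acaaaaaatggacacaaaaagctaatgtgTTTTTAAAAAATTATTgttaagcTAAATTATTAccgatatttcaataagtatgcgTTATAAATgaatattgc
spi (chr2L:19575737-19575837): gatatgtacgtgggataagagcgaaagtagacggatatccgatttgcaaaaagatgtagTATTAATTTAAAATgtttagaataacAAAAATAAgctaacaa
rho (chr3L:1464630-1464730): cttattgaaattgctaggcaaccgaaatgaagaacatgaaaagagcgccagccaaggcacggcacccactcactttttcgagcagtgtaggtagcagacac
pnt (chr3R:23326419-23326519): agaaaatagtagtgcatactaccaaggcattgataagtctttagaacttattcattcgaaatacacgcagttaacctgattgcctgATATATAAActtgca
aop (chr2L:2180194-2180294): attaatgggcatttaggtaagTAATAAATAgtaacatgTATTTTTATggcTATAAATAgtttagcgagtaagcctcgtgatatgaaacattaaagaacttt

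These windows differed in base composition. The bnl and htl sites were the poorest in G and C, at 22.8% and 23.8%, followed by aop at 27.7%, spi at 29.7% and pnt at 33.7%. Among the printed windows the rho site was the richest, with 48.5%, and the only one without an A/T stretch of 8 bases. The longest such stretch in them was 16 bases, at bnl. The strongest summits of the members on 2R, not printed, had 34.7% at ths, 41.6% at Egfr and 42.6% at pyr. Those at ths and Egfr also had no A/T stretch of 8 bases. Marking these stretches was decided after the sequences had been seen.

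Over all the members' thresholded summits, the centre was less rich in A and T than over the whole list. The mean GC content of windows of this length was 36.4% at the 48 members' summits, with a range from 16.8% to 62.4%, and 33.3% at all 7287. The members' promoter windows averaged 41.1% and their other windows 34.7%. An A/T stretch of at least 8 bases was present in 31 of 48 windows (64.6%), against 47.9% and 50.0% of windows 500 bp to the left and to the right. The whole list gave 77.0% at the summit and 49.8% and 49.7% on the flanks. Both sets of summits therefore sat in a local dip in GC content.

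**Figure D2:**
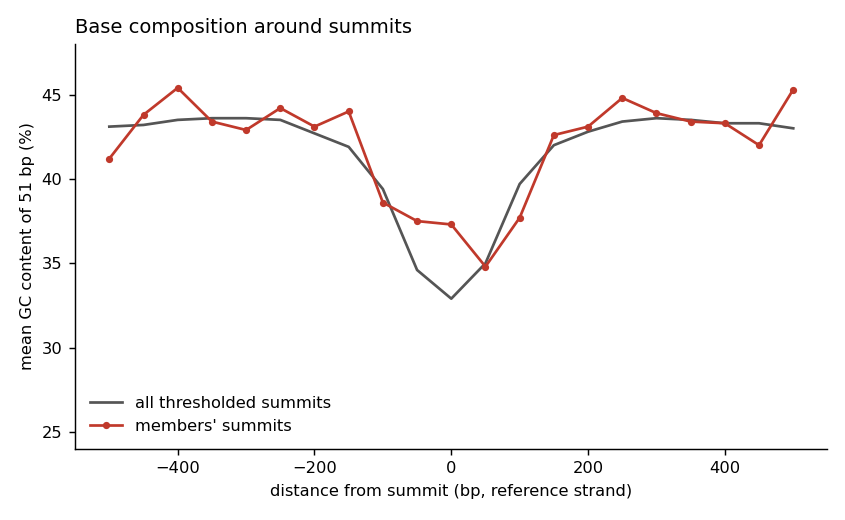
Mean GC content (%) of 51 bp windows on the y axis against distance from the summit in bp on the x axis, for the 48 members' thresholded summits in red and all 7287 in grey. At the summit itself the members average 37.3% and the whole list 32.9%, and both lie at 41.2% or more at 500 bp on either side.

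Each short sequence element of known embryonic factors was found in at most 8 of the 48 windows. Searched on both strands, and with no element contained in another, the Zelda element CAGGTA was in 2 of the 48 windows (4.17%; 1.88% of the whole list), at Egfr and aop. The Twist type E-boxes CACATG or CATATG were in 2 (4.17%; 7.22%), at pnt and aop. The GAGA element GAGAG was in 8 (16.7%; 9.33%) and the GATA core AGATAA in 1 (2.08%; 8.14%). The ETS core CCGGAA, which pnt and aop proteins recognise, and the DNA replication-related element TATCGATA were in none of the 48, against 1.91% and 1.03% of the whole list. None of the 6 printed windows held any of these letters. The differences from the whole list go both ways, rest on few windows and were not tested. No rate outside summit windows is given for comparison. A match is only a run of letters, and no factor's binding was measured.

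The FGF receptor genes had the fewest thresholded summits, 1 and 0, although the summit at htl was stronger than any at rho or pyr. At htl (FBgn0010389, 3R, 18045216 to 18052984, minus strand) the only thresholded summit, at 18049763, had a signal value of 719.5 and lay 397 bp upstream of the downstream start site, which htl-RA and htl-RC use. Because htl-RB starts 3618 bp further upstream, this position is also in the 3931 bp first intron of that transcript. Its rank was 1739 in replicate 1, 2346 in replicate 2 and 1197 in replicate 3, against 1577 in the pooled list; replicate ranks below keep this order. Both start sites make a protein of 729 codons. No pooled summit was within 500 bp of the upstream start site, although 2 of the 3 replicate lists had one there. A weaker pooled summit between the start sites had a signal value of 83.35 and overlapped peaks of 2 replicates.

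At btl (FBgn0285896, 3L, 14075772 to 14083229, plus strand) none of the 5 lists had a summit. Of all protein-coding genes, 16.9% also had none in any list, and the share was 7.32% among genes with a window as long as that of btl or longer. The nearest pooled summit was 11087 bp upstream of the first start site, with a signal value of 75.32, and the nearest thresholded one was 24605 bp upstream. The windows of btl and htl had nearly the same length, 17.5 and 17.8 kb.

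The FGF ligand genes had many weak summits and few thresholded ones at promoters, though each had a pooled promoter summit. Many pooled summits were not particular to them. Per 10 kb of window the pooled list had 4.74 at bnl, 3.85 at ths and 5.40 at pyr. It had 4.63 at Egfr, 5.46 at pnt, 7.21 at spi and 7.44 at aop, but only 1.32 at rho, 1.13 at htl and 0 at btl. The bnl window (FBgn0014135, 3R, 19794073 to 19836817, minus strand) held 22, 22 and 26 summits in the replicate lists and 25 in the pooled list, of which 5 were thresholded. The strongest, at 865.0, was in the 7219 bp first intron, 5671 bp downstream of the only start site, and ranked 1107, 1273 and 1283 in the replicates. The other 4 ran from 211.5 to 243.2. A pooled summit 83 bp upstream of the start site had a signal value of 206.3 and rank 7461, just below the weakest thresholded bnl summit at rank 7269, and peaks in all 3 replicates overlapped it.

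The ths gene (FBgn0033652, 2R, 11756817 to 11814424, plus strand) has start sites 33549 bp apart, and neither had a thresholded summit within 500 bp. Its strongest summit, at 1128, lay 1500 bp downstream of the downstream start site, in the first intron of ths-RA, and ranked 598, 770 and 852 in the replicates. A companion at 424.7 was 969 bp further on. The remaining 4 thresholded summits had signal values from 213.5 to 333.5, and 1 of them lay 1382 bp upstream of the upstream site. At pyr (FBgn0033649, 2R, 11712263 to 11726345, plus strand) the 3 thresholded summits were all near the bottom of the list. The summit 46 bp downstream of the start site, in the 5' UTR, had a signal value of 219.3 and ranked 8024, 5956 and 10666. The other pyr summits, 3332 and 9303 bp into the gene, had signal values of 218.7 and 222.9.

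The strongest summits of Egfr, spi and rho lay within 869 bp of a start site, nearer than those of bnl and ths. At pyr the strongest lay 9303 bp from the start site, but it was nearly tied with the one at 46 bp (222.9 against 219.3). The summit at 46 bp ranked better in replicates 1 and 2 (8024 against 8986, 5956 against 12078). In replicate 3 it ranked worse (10666 against 7713). At Egfr (FBgn0003731, 2R, 21522420 to 21559977, plus strand) a summit with a signal value of 1526 lay 181 bp upstream of the Egfr-RA start site. It ranked 346 and 313 in replicates 2 and 3 but 915 in replicate 1. The Egfr-RB start site, 24223 bp downstream, begins a transcript with a longer coding sequence, 1426 against 1377 codons. That site had no thresholded summit within 500 bp, and the pooled summits there had signal values of 96.57 and 62.85. The 31587 bp first intron held thresholded summits of 354.3 and 340.3, and for both the nearest annotated start site belonged to another gene, lncRNA:CR44725 or CG30286.

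All 3 start sites of spi (FBgn0005672, 2L, 19567900 to 19577315, minus strand) had a thresholded summit within 500 bp, and all 3 lead to the same length of 234 codons. With any 1 replicate left out, 2 of the 3 sites had one. The middle site, used by spi-RG, had the strongest summit, with a signal value of 1389, 200 bp upstream; its replicate ranks were 550, 862 and 341. The downstream site had 587.2 at 329 bp upstream, with ranks 1875, 2112 and 2362. The upstream site had 227.0 at 111 bp upstream, with ranks 5956, 7907 and 8925. A further summit of 368.4 lay 200 bp from the strongest one, in a peak that overlaps it. Its pooled rank was 3884, while the nearest replicate summits ranked only 16373, 14852 and 13882.

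At rho (FBgn0004635, 3L, 1463811 to 1468944, plus strand) the pooled list had 2 summits and both were thresholded. The first lay 18 bp downstream of the start site, with a signal value of 263.0 and replicate ranks of 5635, 5654 and 6233. The stronger, at 349.1, lay 869 bp downstream in the 1335 bp first intron and ranked 5806, 4488 and 4490.

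The ETS genes carried 22 of the 48 thresholded summits. A window with as many as aop, 10 or more, was found at 0.552% of protein-coding genes, and 33 genes had more than pnt. Both are long genes, and longer windows hold more summits. Among 312 genes with windows of 45 to 70 kb, the mean was 3.25 thresholded summits and the upper quartile 5. In that class pnt had 12, ths 6, bnl 5 and Egfr 4. With a replicate left out, bnl had 1 to 3 and Egfr 2 to 3. Those lists hold only 5816 to 5997 peaks, and no mean of the class was computed from them. Among 471 genes with windows of 30 to 45 kb the mean was 2.63 and the upper quartile 4, and aop had 10. Per 10 kb of window, aop had 3.10, spi 2.58, pnt 1.82 and htl 0.563 thresholded summits. The 10 windows together had 1.33, and the chromosome arms as a whole 0.544. The arms include sequence outside genes, so these values do not compare like with like. Genes with windows up to 15 kb, of median 11.6 kb, averaged 0.915 summits. Those with windows of 15 to 20 kb, of median 16.6 kb, averaged 1.43. Of all protein-coding genes, 2.60% were as dense as aop or denser, 5.33% as spi, 12.3% as pnt and 51.6% as htl. For rho, pyr, bnl, ths and Egfr this share ran from 24.1% to 39.5%, so their density was not unusual. The density of spi rests on 5 summits, which fell to 2, 2 and 3 with replicate 1, 2 or 3 left out. By the same rule pnt kept 10 to 11 and aop 8 to 10. The spi summits of 1389 and 368.4 were in overlapping peaks.

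**Figure D3:**
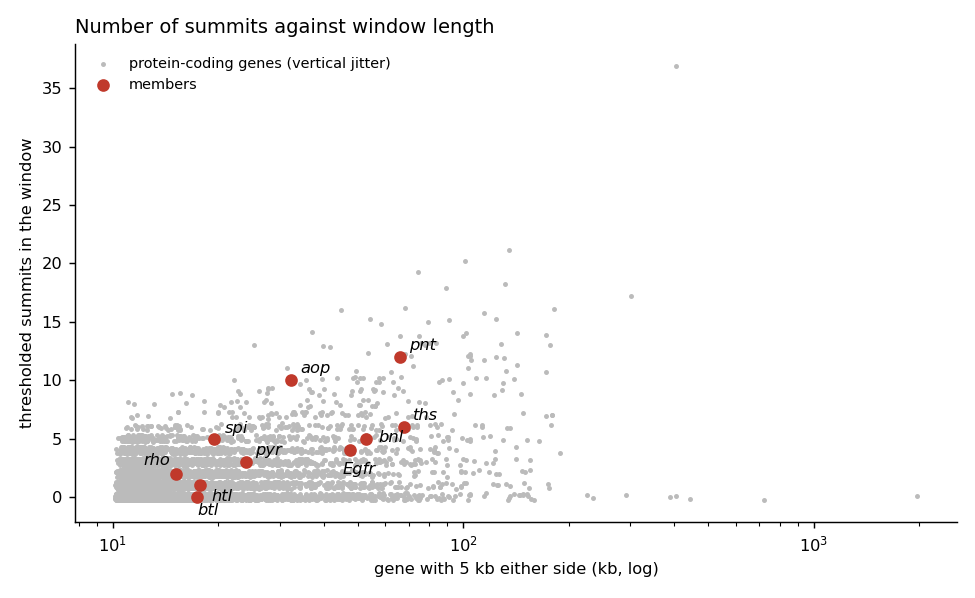
Number of thresholded summits in the window on the y axis against window length in kb on a log x axis, with 1 grey point per protein-coding gene (vertical jitter added) and the 10 members in red. pnt at 12 and aop at 10 lie above most genes of like length, while btl lies at 0.

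At pnt (FBgn0003118, 3R, 23290231 to 23346167, minus strand) the 3 start sites begin proteins of 718, 636 and 623 to 625 codons, in order from the upstream end. The upstream site, of pnt-RB, had a pooled summit of only 90.05 within 500 bp and a thresholded summit of 437.0 at 870 bp upstream. The middle site, of pnt-RD, had 341.8 at 236 bp upstream, with ranks of 6970, 2996 and 3966. The downstream site, of pnt-RC and pnt-RE, had 228.5 at 275 bp upstream, with ranks of 5844, 10366 and 6861.

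The strongest pnt summits were not at these promoters. A 24337 bp intron of pnt-RB, within which the middle site lies, held 8 of the 12 thresholded summits. The strongest of them, 834.9, lay 12154 bp upstream of the middle site and ranked 1397, 1160 and 1267. A run of 5 others, from 427.6 to 500.1, fell within 4236 bp (3R, 23331481 to 23335717). One of the 5 was 14 bp from the annotated start of lncRNA:CR46090, inside that intron. For the strongest summit and for all 5 of the run, the nearest annotated start site was that of lncRNA:CR46090 and not of pnt. Such a run, 5 or more thresholded summits within 5 kb, began at 78 of the 7287 summits (1.07%).

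The aop gene (FBgn0000097, 2L, 2156484 to 2178754, minus strand) has start sites 17227 bp apart that lead to 1 coding length, 732 codons. Its upstream end had a run of 5 summits in 4153 bp. The strongest member summit of all, 1841, was in this run, 1490 bp upstream of the upstream site, and ranked 276, 240 and 319. Nearer to that site were 759.0 at 848 bp upstream and 308.1 at 39 bp downstream. The downstream site, of aop-RA and aop-RD, had 301.8 at 460 bp upstream. In the 10559 bp intron upstream of it, a stronger summit of 977.3 lay 2154 bp upstream and ranked 1356, 648 and 971.

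Among members with more than 1 start site, htl, Egfr and pnt had a thresholded summit within 500 bp of some sites but not of others. At spi and aop every site had one, and at ths and btl none did. The members have 19 annotated start sites, and 11 had a thresholded summit within 500 bp, against 22.2% of the start sites of all protein-coding genes. Without replicate 1, 2 or 3 the number was 8, 9 and 7, and the pyr site had none each time. The bnl site, which had none in the thresholded list, had a summit without replicate 1. In the pooled list 15 had one, and 14 had one in every replicate list. By gene, 7 of 10 members had a thresholded promoter summit, against 23.9% of protein-coding genes, and 9 of 10 had a pooled one, against 46.8%. Of the 7 members with more than 1 start site, spi, pnt and aop had a thresholded summit at 2 or more of them, against 23.2% of all such genes. Without replicate 1 or 3, spi alone did, since pnt and aop had 1 such site each. The 12 promoter summits lay from 460 bp upstream to 46 bp downstream of the start site, and 9 of them were upstream. The comparisons with all genes are descriptions without a test, since the set has only 10 genes whose lengths differ from the rest. The members were also chosen with earlier results of these data known.

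The order of the members by their strongest summit was led by aop, with a mean replicate rank of 278.3 ± 39.6 (SD, n = 3 here and below). Egfr (524.7 ± 338), spi (584.3 ± 262) and ths (740.0 ± 130) followed, and their replicate ranks overlapped with each other. The ranks of aop reached 319, past the best Egfr rank of 313. After a gap came bnl (1221 ± 98.9), pnt (1275 ± 119) and htl (1761 ± 575), whose ranks overlapped. The ranks of rho (4928 ± 760) and pyr (9592 ± 2245) overlapped with those of no other member.

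**Figure D4:**
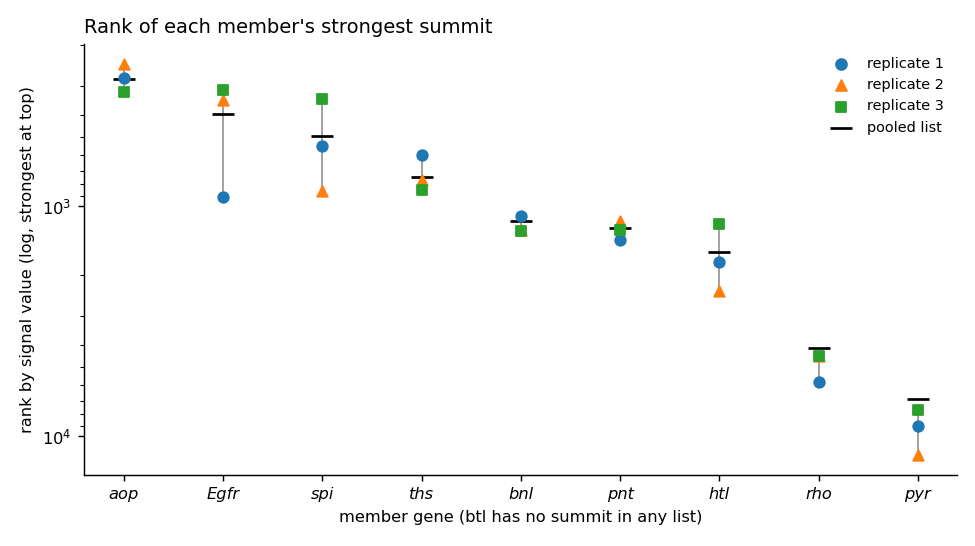
Rank by signal value on an inverted log y axis for the strongest thresholded summit of each of 9 members, in each replicate list (coloured points) and in the pooled list (black bars); grey lines span the replicates. aop lies between 240 and 319, and pyr between 7713 and 12078, while the Egfr replicates run from 313 to 915.

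As a group the members' summits were of moderate strength. Their median signal value was 328.7 (quartiles 257.1 and 468.4), against 388.7 (273.4 and 652.1) for the whole thresholded list, which reached 8514. The 728 strongest peaks included 3 of the 48, at aop, Egfr and spi. At or above the median of the list were 17 of 48 (35.4%), of which pnt had 7, aop 3, ths and spi 2 each, and htl, bnl and Egfr 1 each. Of the 7 members with a thresholded promoter summit, 3 had one of that strength, htl, Egfr and spi.

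Replicate support was complete for the thresholded summits. Each of the 48 peaks overlapped a peak in all 3 replicate lists, against 97.8% of the whole list, and 47 had a summit within 100 bp in all 3, against 90.9%. The exception, at aop 2663 bp downstream of the upstream site, had one in 2 replicates. Taking only the 7287 strongest peaks of each replicate, 33 were supported by all 3 (68.8%, against 71.8% of the whole list). The pyr summit at 9303 bp was supported by none. Support here is by peak overlap, so the 33 include the spi summit of 368.4, whose nearest replicate summits ranked 13882 to 16373. The SD of the rank over replicates was 19.3% of its mean at the median summit, and between 3.43% and 64.4% over the 48. The thresholded list was made from these replicates, so part of this support is built in.

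**Figure D5:**
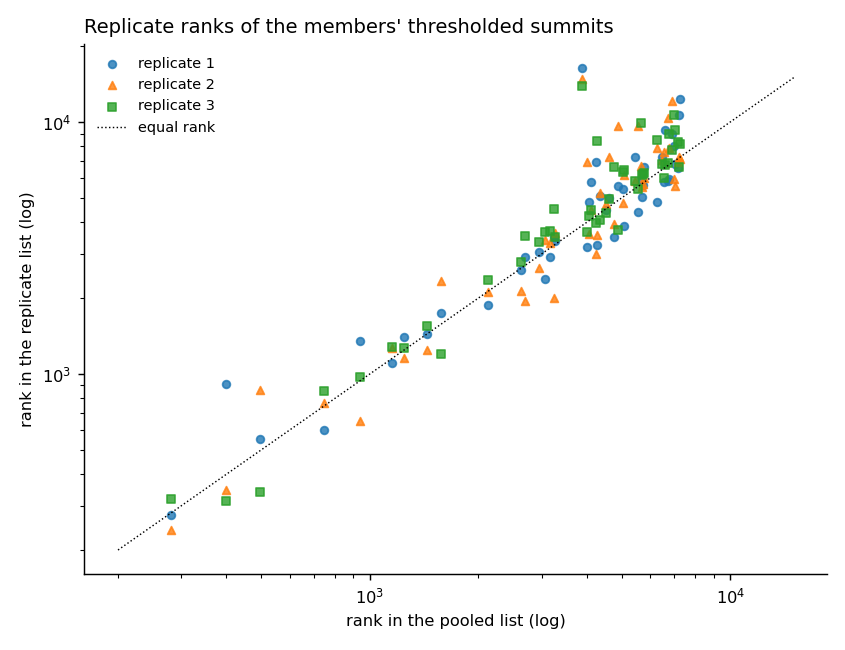
Rank in each replicate list on the y axis against rank in the pooled list on the x axis, both log, for the 48 thresholded summits of the members; the dotted line is equal rank. Most points follow the line, and the 3 points far above it near pooled rank 3884 belong to the spi summit whose replicate ranks are 13882 to 16373.

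The pooled list added 116 weaker summits in the windows, with signal values from 51.67 to 206.3. Of these, 63 overlapped a peak in all 3 replicates, 30 in 2, 19 in 1 and 4 in none. The replicate lists in turn held 484 summits in the windows, of which 77 (15.9%) overlapped no pooled peak. By gene, the 3 replicate lists gave similar numbers: pnt had 37, 31 and 35 summits, aop 24, 24 and 27, ths 26, 21 and 30, and Egfr 18, 25 and 20. The smaller windows gave 17, 14 and 13 at spi, 14, 9 and 13 at pyr, 3, 3 and 2 at rho and 2, 4 and 2 at htl.

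Other genes of receptor tyrosine kinase signalling were counted in the same way, from lists of known pathway genes. These lists too were chosen with earlier results of these data known. Of 68 genes in 6 lists, 54 (79.4%) had a thresholded summit in the window, against the 56.3% and 70.6% above, and 23 (33.8%) had one at a promoter, against 23.9%. The genes for the FGF receptor adaptor and heparan sulphate, which helps FGF bind its receptor, had a window summit in 10 of 10 and a promoter summit in 7. The promoter summits were strongest at sotv, a heparan sulphate polymerase (1067), stumps, the adaptor of both FGF receptors (743.7), dlp, a glypican (743.3), and sfl, a sulphotransferase (402.0).

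In the Ras and MAP kinase cassette, 12 of 14 genes had a window summit and 7 a promoter summit. The adaptor gene Shc had the strongest promoter summit of the 68 (2676), and 14-3-3zeta (488.2), whose protein binds Raf, the GTPase gene Ras85D (387.9) and 14-3-3epsilon (338.6) followed, while rl, the MAP kinase itself, had no summit in any list. In the EGF list, of ligand, processing and rhomboid family genes, 6 of 10 had a window summit and 2 a promoter summit. The latter were Krn (978.1), a ligand, and rho-7 (683.3), a mitochondrial rhomboid protease. Inhibitors had 7 and 2 of 9, the latter at Mkp3 (1113), a MAP kinase phosphatase, and aos (517.4), a secreted EGF inhibitor. Nuclear effectors also had 7 and 2 of 9, the latter at gro (1900), a corepressor, and edl (442.5), which binds the aop protein. Of other receptor tyrosine kinases, 12 of 16 had a window summit and 3 a promoter summit, Eph (2140), the ephrin receptor, InR (435.2), the insulin receptor, and drl (305.2), a receptor for a Wnt ligand. By list, the promoter shares were 70.0% for the FGF adaptor and heparan sulphate genes and 50.0% for the Ras and MAP kinase cassette. They were 22.2% for inhibitors and for nuclear effectors, 20.0% for the EGF list and 18.8% for other receptors. These last shares were no higher than the 23.9% of all protein-coding genes. Window shares ran from 60.0% in the EGF list to 100%, against the 56.3% and 70.6% above. The genes without a summit in any list were grk, rho-6, rl, tor and Alk.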

How the data were processed

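The peak lists were deposited by the authors in narrowPeak format. Per the text files deposited with them, replicate peaks were called against 1 shared control, pooled peaks came from all replicates, and the thresholded list came from those 4 lists by an irreproducible discovery rate procedure. Which aligner, peak caller and threshold were used is not given in the sources used here. Each peak's signal value and -log10 q value are the authors' own, as deposited; the former was used to rank peaks within a list and the latter was not used. The summit is the deposited offset (another column) added to the start. The lists give no read counts, so depth is unknown.

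Gene models came from Ensembl release 115 (BDGP6.54), of the same assembly as the lists (dm6, per the labels). Summits were counted in each gene with 5000 bp either side, and at a promoter within 500 bp of any start site. Overlap meant 1 bp or more, and the replicate peak with the nearest summit gave the rank. No test was run. The members and lists were chosen with earlier results of these data known. All members are named with their strongest, promoter and strongest intronic summits, and of each other list up to 4 genes with the strongest promoter summit. Scripts used Python 3.11.15, pandas 2.3.3 and numpy 2.4.6 and were checked on simulated peaks.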

Additional observations from a re-analysis of the deposited data

How the results depend on the processing

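Other settings were applied to 5 counts, which gave 25 values, 23 of them within 1.5 times of the reported ones. With only peaks at or above the median signal value of the thresholded list, the members' summits fell from 48 to 17 and the members with a promoter summit from 7 to 3 (htl, Egfr and spi), while 7 members kept a summit in the window. That setting keeps fewer peaks by construction. Leaving out each replicate in turn gave 9 members with a summit each time, 35 to 37 summits and 6 to 7 members with a promoter summit. The members with a promoter summit changed, since pyr was lost each time and bnl was gained without replicate 1. Counts of single genes moved more, to 1 to 3 at bnl, 2 to 3 at spi and Egfr and 1 at pyr, and start sites with a summit went from 11 to between 7 and 9. These lists hold 5816 to 5997 peaks, fewer than the 7287 thresholded ones by construction. Flanks of 0, 2 and 10 kb gave 41, 48 and 52 thresholded summits and 141, 155 and 183 pooled ones, always at 9 members. Promoter widths of 250 and 1000 bp gave 6 and 7 members and 7 and 12 start sites, and at 250 bp spi alone had a summit at 2 or more of its sites. The stronger part of the list gave 4 start sites. No paired analysis was possible because there is 1 group and no result comes from a test. Without read counts, the absence of a summit at btl, rl or any other gene does not show absence of binding.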
